A study of Mus musculus with 10 samples.

Results

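Mural cells are the pericytes and smooth muscle cells that lie on the outer face of blood vessels. In RNA from lung cells sorted as endothelial, 10 of their marker genes were followed. The genes were Pdgfrb, Cspg4, Notch3, Gucy1a1, Trpc6, Acta2, Tagln, Myh11, Cnn1 and Des. They were chosen by symbol as mural markers, each symbol mapped to 1 row of a table of 55385 gene identifiers, and 10 of 10 passed the filter on low counts that left 17997 genes for testing. All mice had loxP sites around both copies of Tnfsf10 (Tnfsf10 L/L), which encodes TRAIL, a ligand of death receptors. The 5 control libraries came from mice without a Cre transgene (Cdh5.Cre W/W). The other 5, labelled EC-TRAIL KO, came from mice with a tamoxifen-inducible Cre driven by the endothelial Cdh5 promoter (Cdh5.Cre Tg/W), so the transgene and the deletion cannot be told apart. Mice of both groups were 8 to 14 weeks old and were described as given 1 mg of tamoxifen daily for 5 or 10 days. The Cdh5 promoter is not one of mural cells, so the design does not place the deletion in the cells these genes mark.

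Pericytes share the basement membrane of capillaries with the endothelium, and smooth muscle cells wrap arterioles, veins and airways. Endothelial cells recruit them by secreting the growth factor PDGF-B, which binds the receptor encoded by Pdgfrb, and Notch ligands on endothelium act on Notch3. In the lung, mural tone is set in part by nitric oxide, which endothelium makes and soluble guanylate cyclase senses, and by calcium entry through channels such as Trpc6. Pericytes are known for little of the contractile apparatus that smooth muscle cells carry (Acta2, Tagln, Myh11, Cnn1).

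The values are CPM, the share of a library's expected counts scaled to a common total, on library sizes adjusted by TMM. Controls were the deeper libraries (34435835 to 56897822 against 29806083 to 34702571 expected counts; exact two-sided permutation p = 0.0159). Cdh5 was at 3511 to 4181 CPM and Pecam1 at 1924 to 2605 CPM in the 10 libraries, so the defining markers of the labelled cell type were present. Genes of other lung cells were abundant too. The sum of 10 alveolar epithelial genes was 9269 ± 1691 CPM in controls and 8620 ± 1155 CPM in KO-labelled libraries (SD, n = 5 each). That of 8 endothelial genes was 11180 ± 724 and 11458 ± 719 CPM in the same order. Tnfsf10 was at 298 to 374 CPM in controls and at 81.0 to 318 CPM in those labelled EC-TRAIL KO, of which replicate 2 lay inside the control range. The second group is therefore called KO-labelled. The labels do not tie each library to an animal of its own, and the p-values speak for the spread among libraries alone. In bulk RNA of this kind, fewer mural cells, less RNA per mural cell and less RNA of these genes from other cells cannot be told apart.

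Every one of the 10 genes was detected in every library. Their summed level was 507, 556, 631, 683 and 559 CPM in control replicates 1 to 5, and 411, 383, 523, 559.9 and 649 CPM in KO-labelled replicates 1 to 5. KO-labelled replicates 1 and 2 lay under all controls and replicate 5 lay near the top of the control range. Tnfsf10 in KO-labelled replicates 1 to 5 was at 199, 318, 126, 169 and 81.0 CPM. It was thus highest in replicates 1 and 2 of that group and lowest in replicate 5. The relation of Tnfsf10 to the mural sum was not tested. On average the sum was 587 ± 69.5 CPM in controls and 505 ± 109 CPM in KO-labelled libraries (SD, n = 5 each). Set against the summed CPM of 8 endothelial genes, the mural sum came to 5.25% ± 0.476 in controls and 4.47% ± 1.26 in KO-labelled libraries (SD, n = 5 each), with extremes of 3.16% in KO-labelled replicate 2 and 6.29% in replicate 5. These are ratios of RNA and not shares of cells.

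Divided by exon length, the levels showed which mural transcripts made up this RNA. Pdgfrb, the PDGF-B receptor, came first at 23.6 ± 4.64 CPM per kb and Gucy1a1 next at 21.9 ± 4.82 CPM per kb (SD over the 10 libraries, as in the rest of this order). Notch3 followed at 14.0 ± 2.66, Tagln at 10.3 ± 1.96, Des at 9.12 ± 1.59, Acta2 at 6.47 ± 1.67, Myh11 at 5.48 ± 0.609, Trpc6 at 3.03 ± 0.649, Cspg4 at 2.07 ± 0.37 and Cnn1 at 0.184 ± 0.0732 CPM per kb. Of the 9 steps in this order, only those from Myh11 to Trpc6 and from Cspg4 to Cnn1 separated the ranges over libraries. Pdgfrb was above Gucy1a1 in 8 of 10 libraries and Acta2 above Myh11 in 7 of 10, so these neighbours were not apart beyond their spread. Pdgfrb exceeded Acta2 per kb in every library, by 2.04-fold to 5.06-fold. Cnn1, which encodes calponin 1 of differentiated smooth muscle, rested on 10 to 43 expected counts a library. Against the endothelial marker Cdh5, Pdgfrb was 31.5-fold to 61.9-fold lower per kb.

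**Figure D1:**
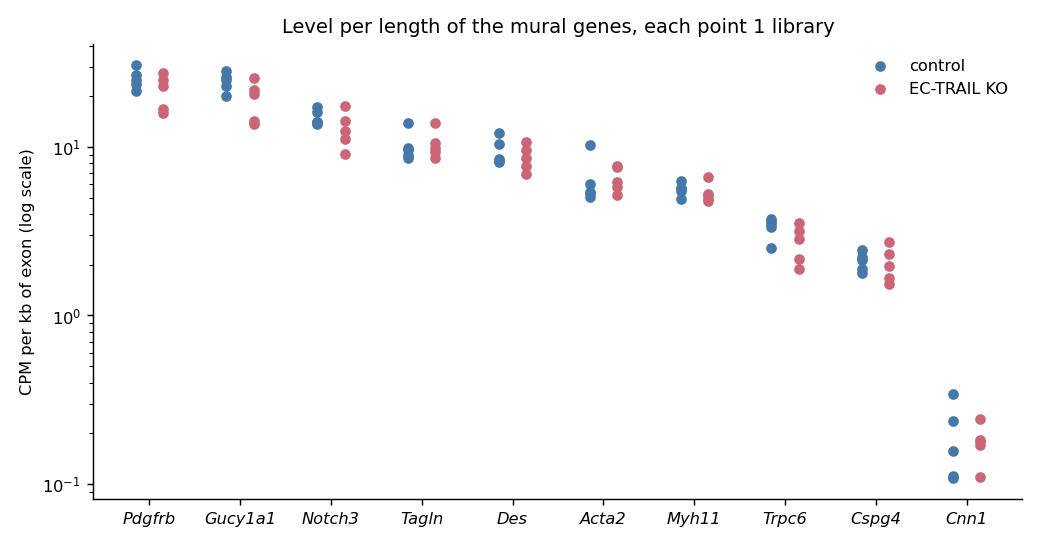
Level per length of the 10 mural genes, as CPM per kb of exon on a log scale, with 1 point per library (5 controls and 5 libraries labelled EC-TRAIL KO). Genes are ordered by their mean over the 10 libraries; Pdgfrb and Gucy1a1 lead, and Cnn1 lies more than a log10 unit under Cspg4, the gene before it.

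The receptors, the surface proteoglycan, the cyclase subunit and the channel shared one pattern over libraries. Pdgfrb (ENSMUSG00000024620, GRCm38 chromosome 18, 61045150 to 61085061, plus strand) was at 117, 137, 148, 169 and 129 CPM in control replicates 1 to 5. In KO-labelled replicates 1 to 5 it was at 86.9, 92.6, 126, 137 and 151.5 CPM. KO-labelled replicates 1 and 2 were under every control, and the other 3 lay inside the control range. Controls averaged 140.1 ± 19.5 CPM and KO-labelled libraries 118.9 ± 28.1 CPM (SD, n = 5 each). The log2 fold change, KO-labelled over control, was -0.24 (SE 0.154) and missed the threshold of edgeR's quasi-likelihood test (p adjusted over all tested genes = 0.997; exact two-sided permutation p = 0.214).

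Notch3 (ENSMUSG00000038146, chromosome 17, 32120820 to 32166852, minus strand), the Notch receptor of mural cells, was at 110.3, 115, 131, 141 and 114 CPM in controls and at 90.6, 73.5, 100.4, 115 and 142 CPM in KO-labelled libraries. Replicates 1 to 3 of the latter lay under all controls and replicate 5 above all of them, so the groups overlapped. Cspg4 (ENSMUSG00000032911, chromosome 9, 56865033 to 56899870, plus strand) encodes the NG2 proteoglycan of the pericyte surface. It was at 21.4, 22.6, 25.5, 29.1 and 26.5 CPM in controls and at 18.3, 19.9, 23.4, 27.8 and 32.5 CPM in KO-labelled libraries. Again replicates 1 and 2 were the lowest of the 10 and replicate 5 the highest. The log2 fold changes were -0.22 (SE 0.149) for Notch3 and -0.037 (SE 0.15) for Cspg4 (edgeR adjusted p = 0.997 for both).

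Gucy1a1 (ENSMUSG00000033910, chromosome 3, 82092427 to 82145789, minus strand) encodes the alpha-1 subunit of soluble guanylate cyclase, the nitric oxide receptor. It had the largest difference among the 10 genes. Controls were at 139.6, 159, 196, 181 and 173 CPM and KO-labelled libraries at 99.6, 96.1, 153, 145 and 179.7 CPM. The first 2 KO-labelled libraries were again under all controls, the other 3 within their range. With averages of 169.9 ± 21.5 and 134.5 ± 36.0 CPM (SD, n = 5 each), the log2 fold change was -0.34 (SE 0.165) and did not pass (edgeR adjusted p = 0.997; exact two-sided permutation p = 0.103). Trpc6 (ENSMUSG00000031997, chromosome 9, 8544142 to 8680741, plus strand), a receptor-operated calcium channel, was at 12.8, 16.9, 18.9, 18.3 and 17.8 CPM in controls and at 10.97, 9.56, 16.1, 14.4 and 17.96 CPM in KO-labelled libraries. Its lowest libraries were the same pair, and its log2 fold change was -0.29 (SE 0.169; edgeR adjusted p = 0.997; exact two-sided permutation p = 0.135).

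In all 5 of these genes the KO-labelled libraries were spread more widely than the controls. The coefficient of variation was 10.8% to 14.4% over controls and 23.7% to 26.7% over KO-labelled libraries. The difference in spread has no test here.

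**Figure D2:**
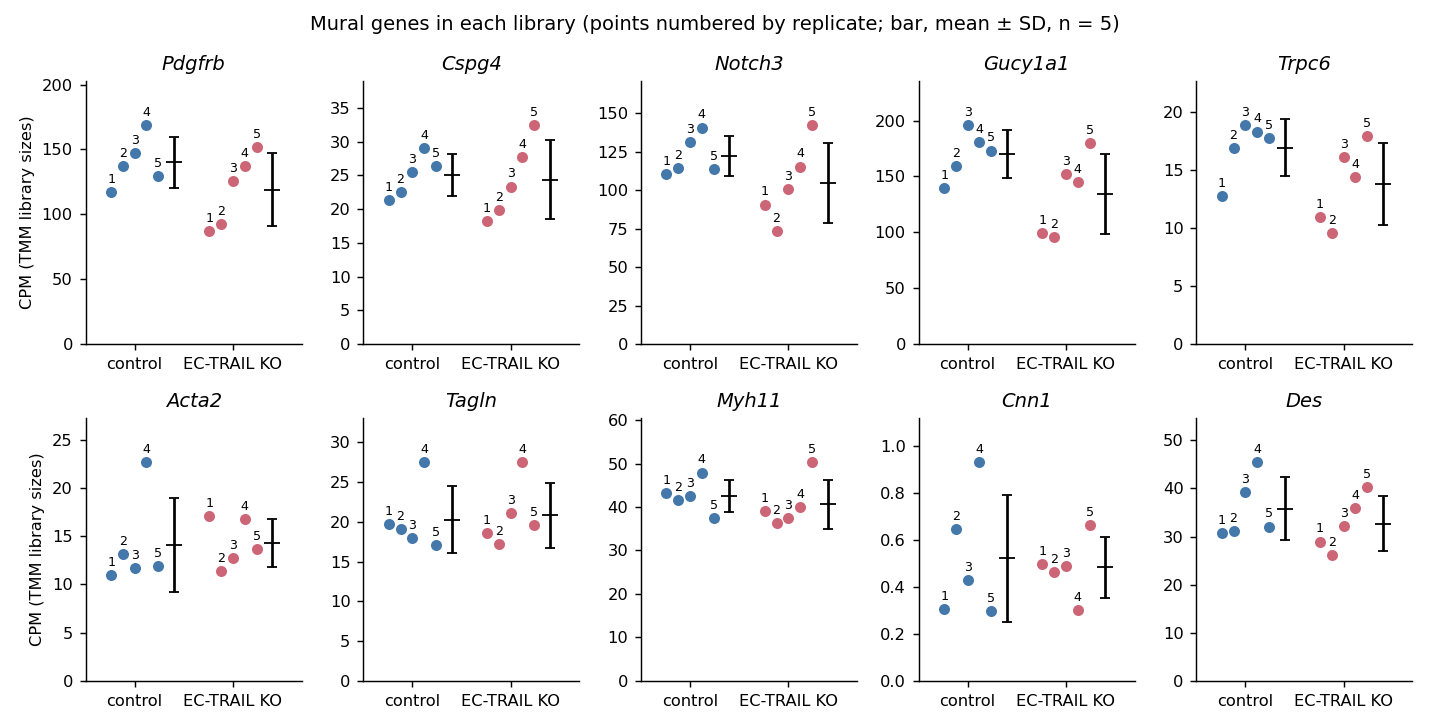
CPM of each mural gene in each library, on linear axes that start at 0, with points numbered by replicate and a bar for the mean ± SD of each group (n = 5). In the upper row KO-labelled replicates 1 and 2 are the lowest libraries of every gene; in the lower row this holds for Des and not for Acta2, Tagln, Myh11 or Cnn1.

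The genes of the contractile apparatus did not share that pattern, apart from Des. Acta2 (ENSMUSG00000035783, chromosome 19, 34241090 to 34255590, minus strand), smooth muscle alpha-actin, was at 11.02, 13.2, 11.7, 22.7 and 11.9 CPM in controls and at 17.04, 11.3, 12.8, 16.7 and 13.7 CPM in KO-labelled libraries. Control replicate 4 stood far above the other controls, and KO-labelled replicate 1, which was lowest for Pdgfrb, was the second highest of the 10 for Acta2. Tagln (ENSMUSG00000032085, chromosome 9, 45929619 to 45936058, minus strand), the actin-binding protein SM22, was at 19.7, 19.0, 17.9, 27.6 and 17.1 CPM and at 18.5, 17.2, 21.1, 27.5 and 19.6 CPM in the same order. Both libraries numbered 4 were high and the other 8 lay between 17.1 and 21.1 CPM. Acta2 and Tagln had log2 fold changes of 0.023 (SE 0.198) and 0.036 (SE 0.152; edgeR adjusted p = 0.997 for both).

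Myh11 (ENSMUSG00000018830, chromosome 16, 14194535 to 14291372, minus strand), the smooth muscle myosin heavy chain, varied least, with 37.5 to 47.9 CPM in controls and 36.3 to 50.5 CPM in KO-labelled libraries, and a highest value 1.39 times the lowest. Its highest library was KO-labelled replicate 5. Cnn1 (ENSMUSG00000001349, chromosome 9, 22099216 to 22109630, plus strand) was at 0.304, 0.646, 0.427, 0.932 and 0.296 CPM in controls and at 0.496, 0.464, 0.49, 0.30 and 0.664 CPM in KO-labelled libraries, with the 2 ranges overlapping throughout. Des (ENSMUSG00000026208, chromosome 1, 75360329 to 75368579, plus strand), the intermediate filament desmin, was at 30.8, 31.2, 39.3, 45.6 and 32.1 CPM in controls. It was at 29.0, 26.1, 32.2, 35.9 and 40.4 CPM in KO-labelled libraries, of which replicates 1 and 2 were again under all controls. Log2 fold changes were -0.067 (SE 0.097) for Myh11, -0.12 (SE 0.354) for Cnn1 and -0.13 (SE 0.139) for Des, none passing (edgeR adjusted p = 0.997 for each).

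For the comparison as a whole, 0 of 10 mural genes were higher and 0 were lower in edgeR's test (adjusted p under 0.05), where 0.439% of the 17997 tested genes were higher and 0% lower. Over all 17997 tested genes, edgeR put 686 higher and 237 lower at an unadjusted p under 0.05, the background for such counts here and in the lists below. Of the mural genes there were 0 of 10 at that level with edgeR and 0 of 10 with DESeq2. By limma-voom Gucy1a1 had an unadjusted p under 0.05. In edgeR with the replicate number as a block, Gucy1a1, Trpc6 and Pdgfrb did (3 of 10). After adjustment 0 of 10 passed in either. Without KO-labelled replicate 5, edgeR gave an unadjusted p under 0.05 for Gucy1a1 (0.0111), Notch3 (0.0139), Trpc6 (0.0306) and Pdgfrb (0.0420). Without control replicate 1 it did so for Gucy1a1 (0.0400) and Trpc6 (0.0417), and without the low-count filter for Gucy1a1 (0.0306). None of these passed after adjustment. The exact permutation test was run on each of the 10 genes and gave no p under 0.05, where 5 against 5 libraries can give 0.00794 at the smallest. No gene had groups without overlap, against 0.261% of all tested genes with every KO-labelled library under every control and 1.38% with the reverse. The log2 fold change was negative in 8 of 10 genes, with a median of -0.13, beside a median of -0.0085 and 52.6% negative over all tested genes. It was -0.24 for the 5 receptor and channel genes and -0.067 for the 5 contractile genes. Des is counted with the contractile genes throughout, though over libraries it varied with the receptor and channel genes, as given below. By limma-voom the 95% interval of the log2 fold change ran from -0.60 to 0.079 for Pdgfrb, from -0.74 to -0.005 for Gucy1a1, from -0.36 to 0.49 for Acta2 and from -0.79 to 0.74 for Cnn1. The signs of Cspg4, Acta2, Tagln and Cnn1 turned when single libraries were left out.

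**Figure D3:**
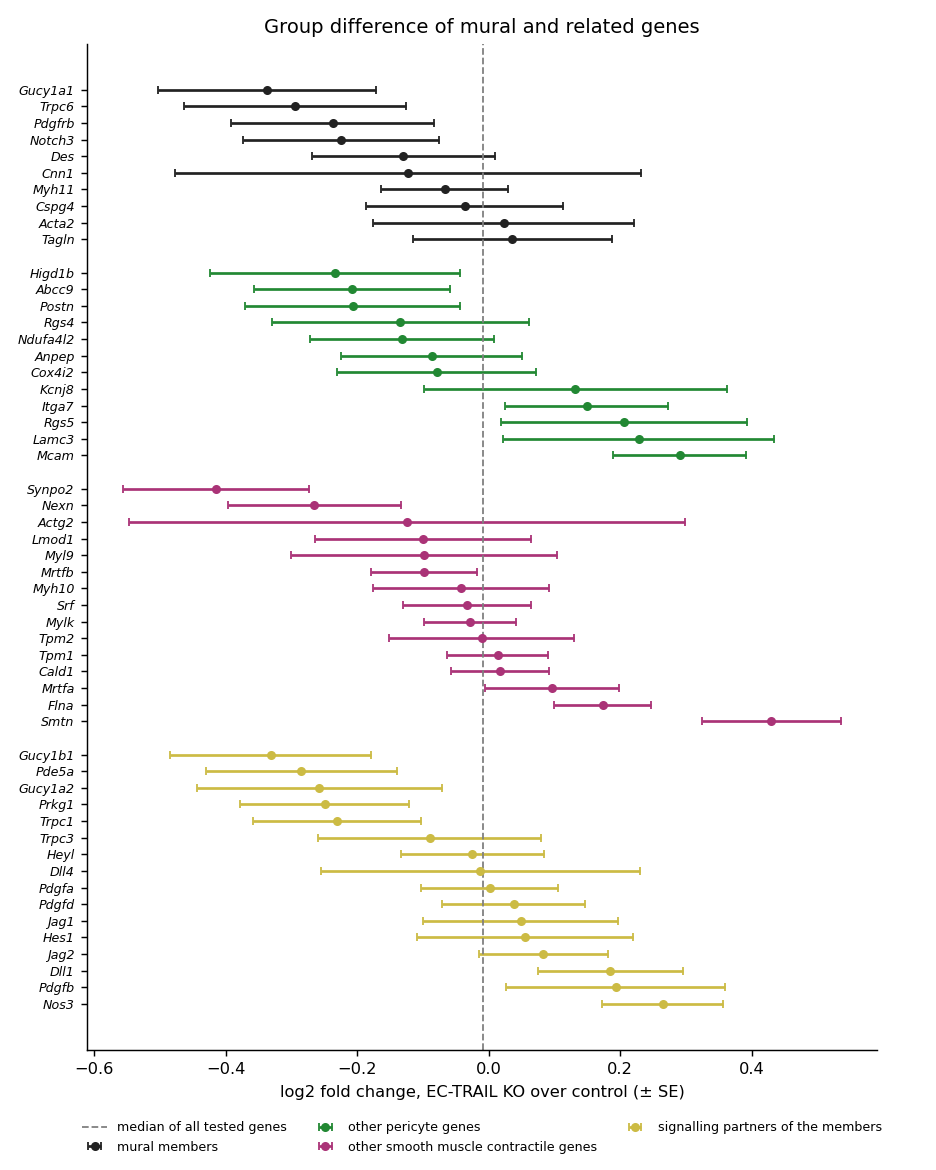
Log2 fold change of KO-labelled libraries over controls, with its standard error, for the 10 mural genes and for 3 lists of related genes; the dashed line is the median of all tested genes. No gene shown passed the test over all genes; among the mural genes Gucy1a1 lies farthest to the left at -0.34.

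How the genes varied together was measured over the 10 libraries, on log2 CPM. For the 5 receptor and channel genes all 10 pairs had a Pearson r between 0.78 and 0.98, highest for Gucy1a1 with Trpc6, and Des joined them (0.78 to 0.98 over the 15 pairs of these 6 genes). Acta2, Tagln and Cnn1 had r between 0.066 and 0.51 with those 5 genes. Among themselves these 3 ranged from 0.25 (Tagln with Cnn1) to 0.77 (Acta2 with Tagln), and Myh11 stood between, at 0.52 to 0.82 with the 5. All libraries share the scaling to their own depth, and the members share libraries.

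**Figure D4:**
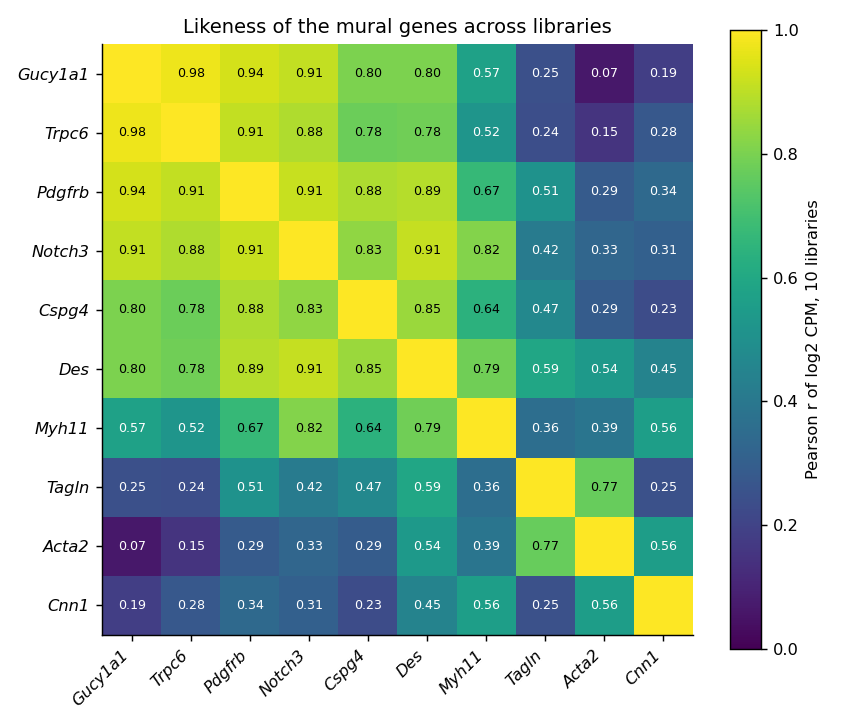
Pearson r of log2 CPM over the 10 libraries for each pair of mural genes, coloured from 0 to 1. Gucy1a1, Trpc6, Pdgfrb, Notch3, Cspg4 and Des form a block with r of at least 0.78; Tagln, Acta2 and Cnn1 have r of at most 0.59 with those 6 genes.

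Relations of Pdgfrb and of Acta2 with the other members, and of Pdgfrb with 6 genes of other cells, made a family of 23, each tested by permutation and adjusted by Benjamini-Hochberg over the 23. The 6 include Pdgfb and Pdgfra, chosen after their values were seen, so the adjustment is over a family partly taken from these data. With Pdgfrb, Cdh5 had r = -0.20 (permutation p = 0.578, adjusted 0.633; rho = -0.079) and Ptprc r = -0.55 (permutation p = 0.099, adjusted 0.186; rho = -0.60). Pdgfrb and Gucy1a1 had r = 0.94 (permutation p = 0.00043, adjusted 0.00239) and rho = 0.87 (permutation p = 0.00229, adjusted 0.00893). The libraries farthest from the median of Pdgfrb were KO-labelled replicates 1 and 2, and without them r was 0.73. For Notch3 r was 0.91 (permutation p = 0.00028, adjusted 0.00239), rho 0.96 (permutation p = 5e-05, adjusted 0.00115), and r was 0.88 without those libraries. Des had r = 0.89 (permutation p = 0.00048, adjusted 0.00239), rho = 0.94 (permutation p = 0.00019, adjusted 0.00146), and 0.93 without them. Cspg4 and Trpc6 also passed, with r of 0.88 and 0.91 and, without the 2 libraries, 0.74 and 0.71. Taking each library's deviation from its own group mean left these 5 relations at r of 0.88 to 0.93.

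Acta2 did not follow Pdgfrb (r = 0.29, permutation p = 0.425, adjusted 0.515; rho = 0.39, permutation p = 0.265, adjusted 0.359). Without KO-labelled replicates 1 and 2 that r was 0.74, so the low value over all libraries depended on those libraries. The same held for Cnn1, with r = 0.34 (permutation p = 0.332, adjusted 0.472; rho = 0.33, permutation p = 0.348, adjusted 0.445) and 0.76 without them. Myh11 had 0.67 with and without them and Tagln 0.51 and 0.41. In the other 8 libraries, then, Acta2 and Cnn1 had r with Pdgfrb close to those of Cspg4, Gucy1a1 and Trpc6 (0.74, 0.73 and 0.71). Control replicate 4 was the highest of these 8 for Pdgfrb, Acta2 and Cnn1 alike (168.9, 22.7 and 0.932 CPM). How far the r of Acta2 and of Cnn1 in the 8 libraries rested on it was not computed. Acta2 and Gucy1a1 had r = 0.066 (permutation p = 0.866, adjusted 0.866; rho = 0.21, permutation p = 0.56, adjusted 0.614), and 0.17 without the libraries farthest in Acta2, control replicate 4 and KO-labelled replicate 1. Acta2 with Tagln passed by r (0.77, permutation p = 0.0156, adjusted 0.0449) and not by rho (0.50, permutation p = 0.146, adjusted 0.28), and r was 0.85 without the same 2 libraries.

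Other mural genes, from a list of 12 pericyte genes, ranged widely in their likeness to the members. Likeness here is the Pearson r over 10 libraries to the mean log2 CPM of the 5 receptor and channel genes, as a description. It was 0.97 for Higd1b, 0.95 for the mitochondrial subunit gene Ndufa4l2, 0.95 for Postn, which encodes the matrix protein periostin, and 0.92 for Cox4i2, a hypoxia-linked cytochrome oxidase subunit. Higd1b was at 6.41, 7.66, 7.82, 8.39 and 8.64 CPM in controls and at 5.05, 4.35, 6.83, 7.3 and 9.56 CPM in KO-labelled libraries. Kcnj8 and Abcc9, which together form a potassium channel of pericytes, had -0.27 and 0.46, and Rgs5, a regulator of G-protein signalling used as a pericyte marker, -0.37. Its level spanned 8.56 to 14.0 CPM over controls and 9.42 to 16.4 CPM over KO-labelled libraries. Rgs4 had 0.73, Lamc3 0.37, Anpep -0.14 and Itga7 -0.45. Mcam had -0.78, where the 8 endothelial genes had a median of -0.45, and was far more abundant, at 457 to 748 CPM. Which cells the Mcam RNA came from was not tested. The median over the 12 genes was 0.42. EdgeR's test called 0 of the 12 genes, with a median log2 fold change of -0.083 (-0.21 for Abcc9 and for Postn, adjusted p = 0.997 for both). At an unadjusted p under 0.05 it was 1 of 12 (Mcam, 492 ± 46.5 and 602 ± 85.2 CPM, SD, n = 5 each, log2 fold change 0.29, SE 0.101, edgeR adjusted p = 0.63).

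The genes most like the receptor and channel group outside the 10 members and among 14726 genes with a mean of at least 1 CPM were Gucy1b1 (r = 0.98), Higd1b (0.97), Pdzd2 (0.96), Axl (0.96), Vtn (0.96), Aff2 (0.96), Arhgef17 (0.95) and Ddit4 (0.95). Gucy1b1 encodes the beta subunit that pairs with the product of Gucy1a1 in the cyclase, Axl a receptor tyrosine kinase and Vtn vitronectin. Gucy1b1 was at 78.8, 83.1, 97.0, 109 and 90.7 CPM in controls and at 57.7, 52.4, 78.7, 81.3 and 94.4 CPM in KO-labelled libraries, lowest in the same pair. In all, 70 of the 14726 genes had r over 0.9 with the receptor and channel mean, members included, and 41 had r under -0.9. There were 3 over 0.9 and 0 under -0.9 with the mean of the 5 contractile genes. For the latter the nearest genes were Plekha5 (0.92), Cage1 (0.91), Rbpms2 (0.90), Fance (0.89), Tmem234 (0.88), Stmnd1 (0.88), Exosc4 (0.84) and Ehbp1 (0.84). That mean is on the log scale and gives the low and noisy Cnn1 the same weight as the other 4. Both sets of nearest genes come from the top of 14726 correlations over 10 libraries. How many as high would come by chance was not computed.

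The start regions of 3 genes are shown because they stand for the contrast above: Gucy1a1 and Trpc6, the pair most alike, and Acta2, the gene least like Gucy1a1. Each is the stretch from 250 bases before to 50 bases after a RefSeq start (GRCm38.p6), read on the gene's strand, 5′ to 3′. Gucy1a1 has a second RefSeq start, whose window is not shown and holds neither motif searched. The windows are chr3:82145601-82145900 on the minus strand for Gucy1a1, chr9:8543892-8544191 on the plus strand for Trpc6 and chr19:34255324-34255623 on the minus strand for Acta2. Capitals mark a CArG box, the element bound by serum response factor, in the strict form CCWWWWWWGG (W is A or T), or the letters TATAA on either strand. Looser forms of the CArG box were not searched and stay in lower case. The Acta2 window holds ccctatatgg and ccttgtttgg, each a single base away from the strict form, so it is not shown to lack the element.
Gucy1a1: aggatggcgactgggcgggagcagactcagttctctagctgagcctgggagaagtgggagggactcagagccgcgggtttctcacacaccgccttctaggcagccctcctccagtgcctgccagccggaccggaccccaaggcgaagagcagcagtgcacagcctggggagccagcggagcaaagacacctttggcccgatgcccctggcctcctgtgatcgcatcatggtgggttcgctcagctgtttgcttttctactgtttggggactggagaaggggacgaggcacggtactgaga
Trpc6: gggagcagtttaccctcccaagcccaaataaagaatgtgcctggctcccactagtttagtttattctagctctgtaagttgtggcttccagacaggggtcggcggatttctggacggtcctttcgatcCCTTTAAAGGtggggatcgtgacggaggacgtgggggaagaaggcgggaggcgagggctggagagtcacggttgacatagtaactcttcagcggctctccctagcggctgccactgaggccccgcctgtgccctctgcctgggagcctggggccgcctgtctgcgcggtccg
Acta2: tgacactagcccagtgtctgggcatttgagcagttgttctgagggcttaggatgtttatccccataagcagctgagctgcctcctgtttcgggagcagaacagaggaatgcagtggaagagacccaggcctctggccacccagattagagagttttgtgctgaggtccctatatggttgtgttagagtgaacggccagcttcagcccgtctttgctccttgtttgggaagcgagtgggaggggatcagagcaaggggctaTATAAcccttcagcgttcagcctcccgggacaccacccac
The CArG box in Trpc6 spans bases 129 to 138 of the window and TATAA in Acta2 bases 261 to 265, counted from the first base printed. Of 32851 start regions of this length in the RefSeq table, 1.63% hold a CArG box and 24.9% hold TATAA on either strand; the motifs share no base in the windows shown. The windows of Cnn1, Cspg4, Des and Notch3 hold neither, which says only that these letters are not in them. Tagln, Myh11 and Pdgfrb have no window here.

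Genes that signal to or within mural cells were listed as 16 partners, of which edgeR called 0 (2 at an unadjusted p under 0.05; median log2 fold change -0.0057). Pdgfb, the ligand of the receptor encoded by Pdgfrb, is made by endothelium. It was at 265, 222, 189.8, 189 and 206 CPM in controls and at 328, 305.5, 210.1, 193 and 188 CPM in KO-labelled libraries. Libraries low in Pdgfrb were high in Pdgfb, with KO-labelled replicates 1 and 2 above all controls. The gene was singled out of its list after its values were seen, so its correlation is given as a description. Across the 10 libraries r was -0.95 and rho -0.95. The r was -0.79 without those 2 libraries and -0.96 on deviations from the group means. The log2 fold change of Pdgfb between groups was 0.19 and did not pass (edgeR adjusted p = 0.997). The 3 partners with the smallest p were Nos3, Gucy1b1 and Pde5a. Nos3, the endothelial synthase that makes nitric oxide, was at 109 ± 6.3 and 130.5 ± 17.7 CPM (SD, n = 5 each; log2 fold change 0.26, edgeR adjusted p = 0.625). Gucy1b1 was at a -0.33 on the log2 scale (SE 0.152, adjusted p = 0.974 by edgeR) and Pde5a, the phosphodiesterase that breaks cGMP down, at -0.28 (edgeR adjusted p = 0.997).

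**Figure D5:**
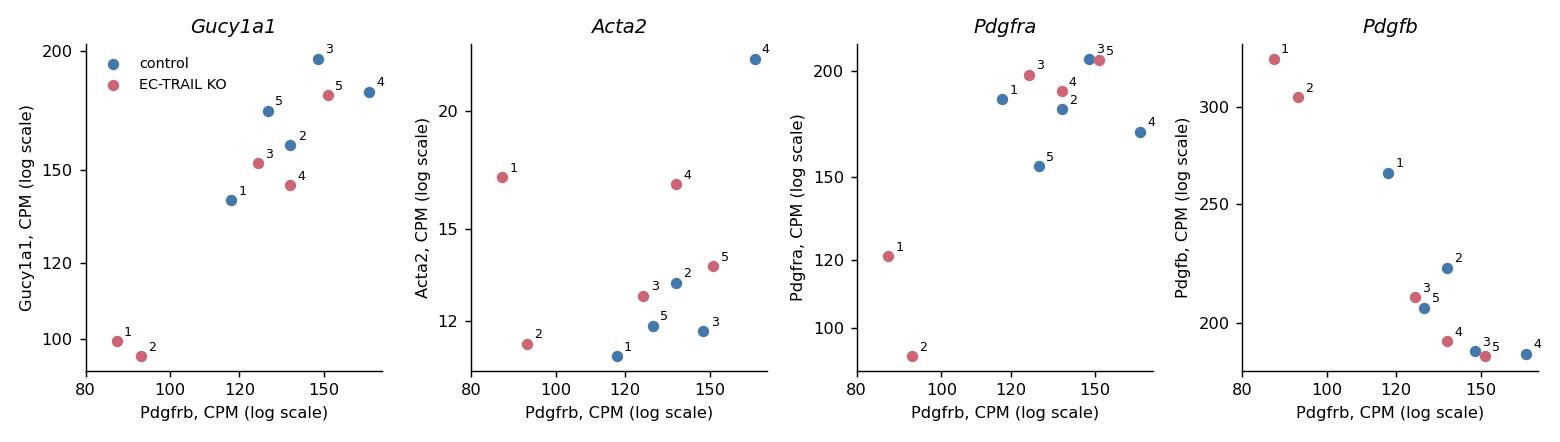
Gucy1a1, Acta2, Pdgfra and Pdgfb against Pdgfrb in the 10 libraries, in CPM on log axes, points numbered by replicate. Gucy1a1 climbs with Pdgfrb (r = 0.94) and Pdgfb declines (r = -0.95); Acta2 shows no such line over the 10 libraries (r = 0.29, and 0.74 without KO-labelled replicates 1 and 2), and for Pdgfra the relation rests on KO-labelled replicates 1 and 2 at the lower left.

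A second list held 17 other contractile genes, of which 15 were tested and edgeR called 0, with a median log2 fold change of -0.033. At an unadjusted p under 0.05 there were 3 of 15, beside 686 higher and 237 lower of all 17997 tested genes. Smtn, which encodes smoothelin, averaged 109 ± 9.08 CPM over controls and 146 ± 24.6 CPM over KO-labelled libraries (SD, n = 5 each), higher in 5 of 5 libraries than in any control. Its log2 fold change of 0.43 (SE 0.106) did not pass edgeR's test (adjusted p = 0.167) and passed DESeq2's (adjusted p = 0.0184; the 19 alternatives together spanned 0.0184 to 0.432). Flna, filamin A of the actin cortex, had 514 ± 17.2 and 579.7 ± 54.7 CPM (SD, n = 5 each; log2 fold change 0.17, edgeR adjusted p = 0.90). It too was higher in 5 of 5 libraries than in any control. Smtn and Flna were the 2 of 15 tested genes with such groups, against 1.38% of all tested genes. Synpo2, an actin-bundling protein of muscle, had 10.6 ± 1.19 and 7.94 ± 1.6 CPM (SD, n = 5 each; log2 fold change -0.41, edgeR adjusted p = 0.59). The likeness of this list to the receptor and channel mean had a median r of 0.16, with 0.77 for Lmod1, the gene of leiomodin 1, and -0.60 for Smtn. Myocd, the smooth muscle co-activator of serum response factor, had 0 to 0.306 CPM and was not tested.

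Markers of other cells also differed between the libraries, and their part in the mural values was not tested. KO-labelled replicates 1 and 2 had the lowest summed CPM of 12 fibroblast genes (1402 and 1193, against 1659 to 2008 in controls and 1687 to 2048.5 in the other 3 KO-labelled libraries). The defining fibroblast gene Col1a1 was at 87.7 and 89.1 CPM in them and at 89.9 to 131.4 CPM in the other 8. Its log2 fold change was -0.026. Pdgfra, the other PDGF receptor, was at 121 and 92.7 CPM in these 2 libraries and at 155 to 206.5 CPM in the other 8. Pdgfrb and Pdgfra, also singled out after its values were seen, had r = 0.79 and rho = 0.56, as a description. Without KO-labelled replicates 1 and 2 this r was 0.066, and for Col1a1 it went from 0.60 to 0.074, where the relations of Pdgfrb with Cspg4, Notch3, Des, Gucy1a1 and Trpc6 stayed at 0.71 to 0.93. Those 2 libraries had 12017 and 12120 summed CPM of the 8 endothelial genes, against 10399 to 12013 in controls. Sftpc, the surfactant gene of alveolar type II cells, reached 3243 to 6171 CPM, and its r with Pdgfrb was 0.23 (permutation p = 0.507, adjusted 0.583; rho = 0.14, permutation p = 0.708, adjusted 0.74) and -0.080 without the 2 libraries. The alveolar genes differed among themselves in likeness to the receptor and channel mean, from -0.099 for Sftpb to 0.79 for Hopx, 0.78 for Ager and 0.75 for Cldn18. The median likeness was 0.48 over 10 alveolar genes and 0.64 over 11 fibroblast genes, both above the 0.42 of the 12 other pericyte genes. The log2 fold change was negative in 10 of 10 alveolar and 11 of 12 fibroblast genes, beside 8 of 10 mural genes. KO-labelled replicate 2 also had the highest level of the mitotic gene Top2a, 170.2 CPM against 33.2 CPM in replicate 1, 50.9 to 85.8 CPM in replicates 3 to 5 and 10.9 to 20.95 CPM in controls.

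Desmin is also made by heart and skeletal muscle. In the list of 8 genes of the cardiac muscle in pulmonary veins 5 were tested and edgeR called 0 (0 at an unadjusted p under 0.05), with sums of 7.31 to 10.3 CPM in controls and 8.995 to 12.4 CPM in KO-labelled libraries. Its defining gene Myh6 was at 0.0296 to 0.544 CPM, and most of the sum came from Myl4 (3.08 to 5.14 CPM) and Ryr2 (1.77 to 4.28 CPM). The 3 with the smallest p were Tnni3, Ryr2 and Myl4, with log2 fold changes of 0.41, 0.31 and 0.11. For 7 skeletal muscle genes, of which 2 were tested with 0 called (0 at an unadjusted p under 0.05), the sums were 2.03 to 3.24 CPM and 1.53 to 3.59 CPM, and Myh4 was at 0 counts in all 5 controls, which allows up to 0.0887 CPM (3 counts, counting error only) in the shallowest of them. Mesothelial genes (6 tested, 0 called by edgeR, 2 at an unadjusted p under 0.05, median log2 fold change 0.48) included Upk3b at 5.23 ± 1.92 and 7.94 ± 2.27 CPM (SD, n = 5 each), Lrrn4 at a log2 fold change of 0.58 and Wt1 at 0.82. Of the other lists edgeR also called 0, in 8 endothelial genes (median log2 fold change 0.07, with Tek at an unadjusted p under 0.05), 12 fibroblast genes (-0.16), 10 alveolar epithelial genes (-0.16) and 8 tested leukocyte genes (0.0031), the last 3 with 0 at an unadjusted p under 0.05. The genes with the smallest p there had log2 fold changes of -0.22 (Tek), 0.11 (Pecam1) and 0.22 (Emcn) among endothelial genes and -0.35 (Scube2), -0.17 (Col14a1) and -0.23 (Fmo2) among fibroblast genes. They were -0.22 (Epcam), -0.21 (Lamp3) and -0.18 (Cdh1) among alveolar genes and -0.15 (Lyz2), 0.18 (Cd79a) and 0.25 (Cd52) among leukocyte genes. In skeletal muscle Acta1 was at 0.34 and Ckm at -0.12.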

How the data were processed

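RNA from sorted lung endothelial cells was measured in 10 libraries (5 controls, 5 labelled EC-TRAIL KO; the series' design text counts 4 transgenic animals, the labels 5, and all were used). TRIzol extraction and a stranded poly-A kit were used, per the labels' protocols. The authors deposited expected counts for each gene, not normalized. The submitters' processing notes name STAR 2.7.1a, RSEM 1.2.28 and GRCm38, while the sources used here give no annotation release, filter or strand setting. RSEM divides reads among similar genes, and none of the values of Acta2, Tagln, Myh11 and Notch3 was whole, so reads shared with paralogs or overlapping genes may enter them; all 10 values of Pdgfrb, Cspg4, Cnn1, Gucy1a1 and Trpc6 were whole. Notch3, Des, Tagln and Trpc6 overlap annotated genes on the opposite strand.

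Symbols, positions and exon lengths came from GENCODE M21 (55144 of 55385 identifiers matched without version). Rounded expected counts went into edgeR 4.0.16 under R 4.3.3 (filterByExpr with a minimum count of 10, TMM, default quasi-likelihood fit, group as the only term; the standard error is the fold change divided by the square root of F), with Benjamini-Hochberg adjustment over 17997 genes and a threshold of 0.05. Log2 CPM for correlations used a prior count of 2. Alternatives used limma 3.58.1 and DESeq2 1.42.0. The fit was tested on simulated data, where it called 62.7% of genes changed 1.5-fold, 79.1% changed 2-fold and 98.5% changed 4-fold. There were 9 false calls among 169. Changes under 1.5-fold, such as those of the 10 mural genes, were not simulated. Every pair of libraries differed beyond counting noise (chi-square at least 18.7 per degree of freedom). Besides the 10 members, in each list the genes that passed or the 3 with the smallest p were named, with defining markers and the 8 genes most alike in pattern (genes not coding for protein, and symbols of the form Gm and a number or ending in Rik, skipped); Pdgfb, Pdgfra, the other genes of the pericyte list, Hopx, Ager, Cldn18, Sftpb, Lmod1, Myocd, Myh4, Top2a, Heyl, Dll4, Mrtfa, Mrtfb and the windows printed were chosen after their values were seen. The members and lists were chosen with earlier results of these data known.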

Additional observations from a re-analysis of the deposited data

Results flagged for a closer look

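In 20 groups of 5 libraries (10 genes in 2 groups) the highest or lowest library was set against the rest by the gap to its neighbour as a share of the group's range, and 3 groups stood out, where chance gives about 1 in 20. Acta2 in control replicate 4 was at 22.7 CPM, with the other controls at 11.02 to 13.2 CPM. Tagln in the same library was at 27.6 CPM, with the others at 17.1 to 19.7 CPM. Myh11 in KO-labelled replicate 5 was at 50.5 CPM, with the others of its group at 36.3 to 39.9 CPM. Without control replicate 4 the log2 fold change was 0.26 for Acta2 and 0.17 for Tagln, and without KO-labelled replicate 5 it was -0.16 for Myh11. None of the 3 passed there, with edgeR adjusted p of at least 0.797.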

How the results depend on the processing

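No mural gene passed under any of the 19 alternatives run (18 for Cnn1, which a filter of 1 CPM removed). The log2 fold change stayed negative for Gucy1a1 (-0.46 to -0.24), Trpc6 (-0.41 to -0.19), Pdgfrb (-0.34 to -0.14), Notch3 (-0.36 to -0.12), Des (-0.22 to -0.028) and Myh11 (-0.16 to -0.021). The values nearest 0 came without KO-labelled replicate 1 (Pdgfrb), KO-labelled replicate 2 (Gucy1a1, Trpc6, Notch3) or control replicate 4 (Des, Myh11), and the farthest without KO-labelled replicate 5. With single libraries left out, log2 fold changes ran from -0.055 to 0.26 for Acta2, from -0.086 to 0.17 for Tagln, from -0.16 to 0.050 for Cspg4 and from -0.27 to 0.18 for Cnn1. The summed difference of the mural genes (-82.4 CPM) ran from -118.6 to -51.9 CPM, the latter without KO-labelled replicate 2. Genes called higher over the whole table numbered 79, and 2 with library size only or limma-voom, 208 with DESeq2, 141 without a low-count filter, and 2 to 154 with single libraries left out; genes called lower numbered 0, and 3 with DESeq2, 2 without the filter and 0 to 1 with single libraries left out. DESeq2 called 1 gene of the other lists (Smtn). The planned legacy estimation is the default of this edgeR version, and the newer estimation, added after seeing the data, also called 79. With the replicate number as a block, 146 genes were higher and 3 lower, and 3 of 10 mural genes had an unadjusted p under 0.05, with edgeR adjusted p of 0.215 for Gucy1a1 (log2 fold change -0.37), 0.418 for Trpc6 and 0.49 for Pdgfrb. The labels do not say what the numbers mark. Same-numbered libraries correlated at 0.114 to 0.433 in their deviations from group means, and matched their own number best, for 4 of 5 numbers, a hint from the data and not from the design. Replicate 2 did neither (0.0679), so the numbers were not taken as pairs. Cnn1, at 10 to 43 expected counts, was limited by depth.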

Other observations

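Of the 10 mural genes, 6 had KO-labelled replicates 1 and 2 as their 2 lowest libraries, as did 6.73% of all 17997 tested genes, a pattern noticed after the values were seen. The ratio of the receptor and channel genes to the contractile genes, as summed CPM per kb, was 2.24 ± 0.277 in controls and 1.87 ± 0.316 in KO-labelled libraries (SD, n = 5 each), lowest at 1.495 in KO-labelled replicate 1 and highest at 2.52 in control replicate 3. Pdgfrb to Pdgfra per kb ran from 1.16 to 1.82 in controls and from 1.17 to 1.83 in KO-labelled libraries.

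Heyl, a Notch target known from mural cells, was at 17.4 to 23.5 CPM over the 10 libraries, with a likeness of 0.71 to the receptor and channel mean, and the Notch ligand Dll4 of endothelium had -0.63. Mrtfa and Mrtfb, co-activators of serum response factor, had -0.74 and 0.23.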
